A study of Mus musculus with 4 samples.

Results

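The genes described here are 31 genes of mitochondrial and peroxisomal fatty acid oxidation, measured by RNA sequencing in brown adipose tissue of the mouse. They were chosen by gene symbol from a list of named enzymes and carriers, and all 31 were found among the 52022 genes with a transcript in the files. All 31 also passed the filter on low counts, which kept 15643 genes for testing, so no member was lost. By the usual site of their proteins, 18 are mitochondrial, 5 are peroxisomal, and 8 act in both compartments or elsewhere in the cell. All 4 libraries are from males with free access to food after 12 weeks on a 60% high fat diet. By their labels, 2 libraries are ATF4 BAT KO, in which the gene for ATF4, a transcription factor of the integrated stress response, is deleted in brown adipose tissue (KO 1 and KO 2), and 2 are WT (WT 1 and WT 2). A prefix in the library names, S2 for WT 1 and KO 2 and S1 for WT 2 and KO 1, puts 1 library of each genotype in each prefix. The sources used here do not give the meaning of the prefix, the age of the mice, the means of deletion, or whether each library is a separate animal. The p-values below therefore measure the spread between these libraries only. KO was compared with WT, S2 with S1, and mitochondrial with peroxisomal members.

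Fatty acids are burned by repeated removal of a short carbon unit from an acyl chain bound to coenzyme A. Mitochondria take in long chains through a carnitine shuttle, oxidise them in a cycle of dehydrogenation, hydration, dehydrogenation and thiolysis, and pass the electrons to the respiratory chain. Peroxisomes shorten very long, branched and dicarboxylic chains with their own set of enzymes. Brown adipose tissue uses mitochondrial oxidation to feed heat production by the uncoupling protein UCP1.

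The libraries held 32714456 (WT 1), 34813870 (WT 2), 25985367 (KO 1) and 30405113 (KO 2) estimated counts. Atf4 was measured at 107 CPM (counts scaled to library size) in WT 2 and at 29.2 CPM in the library labelled WT 1, against 24.95 CPM for KO 1 and 24.5 CPM for KO 2, so the library labelled WT 1 lay much nearer to the KO libraries than to WT 2. The 10 brown adipocyte markers were present in every library, with a summed level of 9847 to 10355 CPM in WT and 10114 to 11460 CPM in KO, and Ucp1 alone was between 5558 CPM (WT 1) and 7018 CPM (KO 1). The 18 skeletal muscle markers summed to 10.3 and 22.8 CPM in WT and to 3562 and 3201 CPM in KO, with 2 of the 18 at 0 counts in each WT library and none at 0 in KO. These muscle markers made up 0.311% to 0.355% of the counts in KO. The 15 macrophage markers summed to 542 and 440.1 CPM in WT and to 160.3 and 435 CPM in KO, none at 0, and the 10 endothelial markers to 866 and 1133 CPM in WT and to 1470 and 964 CPM in KO, none at 0. The 8 white adipocyte markers with a gene in the files summed to 383 and 268 CPM in WT and to 79.3 and 157 CPM in KO, with 1 or 2 at 0 counts in each library. Skeletal muscle also burns fatty acids, and the part of the other cells in the values below was not tested. In bulk tissue, fewer cells of a type and less RNA per cell cannot be told apart.

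The members spanned a wide range of levels. On the length-corrected scale of TPM (transcript abundance corrected for length, summed over a gene's transcripts), the highest member was Hadhb, the thiolase subunit of the mitochondrial trifunctional protein, at 3556 ± 629 TPM (SD, n = 4). It was followed by Acaa2, the thiolase of the last step, at 2189 ± 188, by Ech1, a dienoyl-CoA isomerase, at 2028 ± 94.4, and by Acadvl, the very long chain acyl-CoA dehydrogenase, at 1781 ± 73.2 TPM. Hadha, the hydratase and dehydrogenase subunit of the trifunctional protein, was at 1455 ± 265 TPM and Acadl, the long chain acyl-CoA dehydrogenase, at 1115 ± 196 TPM. At the low end were Acaa1b at 25.0 ± 8.88, Ehhadh at 16.45 ± 6.11 and Cpt1a, the liver-type carnitine palmitoyltransferase, at 7.29 ± 1.92 TPM. The muscle-type enzyme Cpt1b was at 398 ± 60.7 TPM. The 5 peroxisomal members were all at or below the level of Hsd17b4, at 133 TPM on average, while 16 of the 18 mitochondrial members were above 300 TPM, the exceptions being Acot2 and Cpt1a. Transcripts under 1000 bases weigh heavily in some of these sums: they held 53.9% of the TPM of Hadhb, 50.4% of Hadha, 40.7% of Eci1, 38.4% of Ech1, 37.2% of Crat and 33.8% of Acsl5, each over 1.5 times the level of the longer transcripts alone. Over transcripts of at least 1000 bases, a measure added after the transcripts were seen, Hadhb was at 1641 ± 469 TPM, Acaa2 at 1605 ± 427, Acadvl at 1293 ± 331, Ech1 at 1249 ± 351, Acadl at 1051 ± 121 and Hadha at 721 ± 188 TPM (SD, n = 4). On that scale the ranges of mean ± SD of Hadhb, Acaa2, Acadvl and Ech1 overlapped. The genes share the same 4 libraries, so overlapping SDs do not show that their levels were equal. In WT 1, WT 2, KO 1 and KO 2, Acaa2 was at 2005, 1452, 1073 and 1889 TPM. Ech1 was lower in each, at 1477, 1158, 792 and 1567 TPM. The genes were not tested against each other. Etfb has no transcript of that length.

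**Figure D1:**
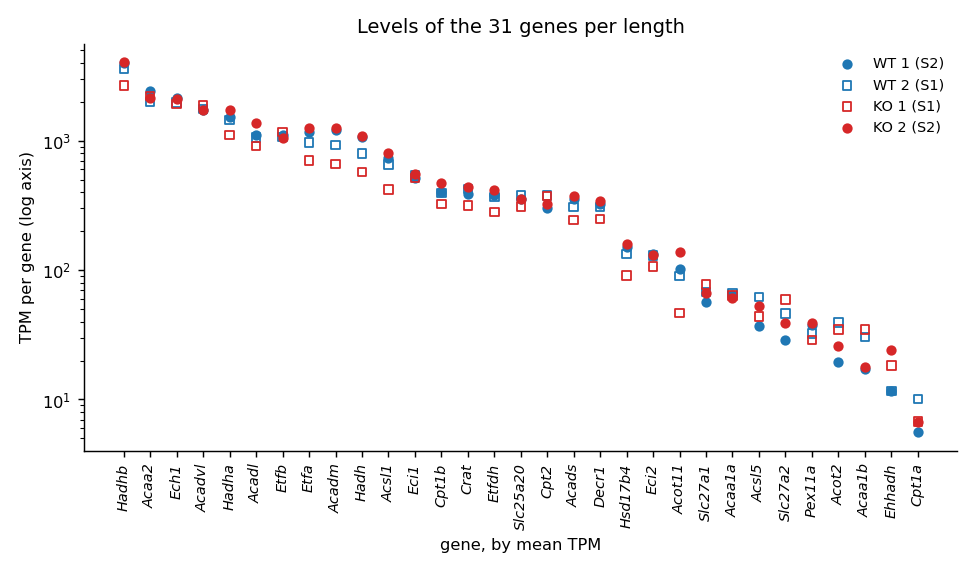
TPM of the 31 members (log axis, all transcripts of a gene summed) in each of the 4 libraries, with genes ordered by their mean; filled circles are S2, open squares S1, blue WT and red KO. Hadhb has the highest mean at 3556 TPM and Cpt1a the lowest at 7.29 TPM, and the 5 peroxisomal members have means of 133 TPM or below.

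By genotype the members lay on both sides of 0. The median log2 difference, KO over WT, was 0.01 over the 31 members and 0.00 over all 15643 genes tested, with 17 members above 0 and 14 below. That balance rested on which libraries were kept: 26 members were above 0 without the library labelled WT 1, 24 without KO 1, 14 without WT 2 and 9 without KO 2, and the median then ran from -0.070 to 0.16. In edgeR's quasi-likelihood test, 0 of 31 members passed an adjusted p of 0.05, against 0.78% of all genes tested. At an unadjusted p under 0.05 there was 1 member, Ehhadh, which is 3.23% of the members against 4.02% of all genes. The genotype groups did not overlap for 4 members (12.9%, against 26.3% of all genes): Ehhadh, Slc27a1 and Eci1 with both KO libraries higher (13.2% of all genes), and Slc25a20 with both lower (13.1%). Summed over the 31 members, the WT libraries held 32245 (WT 1) and 26309.9 (WT 2) CPM and the KO libraries 24515 (KO 1) and 33700.2 (KO 2) CPM. The 2 KO libraries thus held both the lowest and the highest sum, and the KO mean was 0.994 times the WT mean.

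Ehhadh stood apart from the rest in the genotype comparison. It encodes the peroxisomal bifunctional enzyme, which carries out the hydratase and dehydrogenase steps and serves dicarboxylic chains (gene on chr16:21761287-21787807, minus strand, mm10, GENCODE vM21). The WT libraries had 33.4 (WT 1) and 31.3 (WT 2) CPM, the KO libraries 58.7 (KO 1) and 68.6 (KO 2) CPM. Both KO libraries were higher than both WT libraries, with a ratio of the means of 1.97. The log2 difference was 0.98 ± 0.18 (SE, n = 2 a group), with an unadjusted p of 0.00176 and an adjusted p of 0.155 in edgeR, so it did not pass over all genes. The difference was 0.91 within prefix S1 and 1.04 within prefix S2. With the prefix as a second term, a fit added beside the planned one for the members, Ehhadh rose by 0.97 ± 0.15 on the log2 scale with an edgeR adjusted p of 0.00526. It was the only member past the threshold in that fit, against 2.05% of all genes, and the fit leaves 1 residual degree of freedom. DESeq2 called it too (adjusted p = 0.00292; 1.39% of all genes called), and so did edgeR with no filter on low counts (adjusted p = 0.00305; 1.7% of all genes called). Across all alternatives the adjusted p ran from 0.00292 to 0.813, and leaving out any 1 library kept the log2 difference between 0.86 and 1.08 without passing. Muscle markers rose in the same KO libraries (17 of 18 with edgeR adjusted p under 0.05), and their part in the Ehhadh difference was not tested.

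The promoter window of Ehhadh, from 250 bases before to 50 after the gene start in RefSeq (GRCm38.p6, chr16:21787785-21788084, minus strand), is shown because Ehhadh was the member that differed most by genotype. Capitals mark TGACGT, the core of cyclic AMP response elements. The match starts 179 bases before the start.
Ehhadh promoter: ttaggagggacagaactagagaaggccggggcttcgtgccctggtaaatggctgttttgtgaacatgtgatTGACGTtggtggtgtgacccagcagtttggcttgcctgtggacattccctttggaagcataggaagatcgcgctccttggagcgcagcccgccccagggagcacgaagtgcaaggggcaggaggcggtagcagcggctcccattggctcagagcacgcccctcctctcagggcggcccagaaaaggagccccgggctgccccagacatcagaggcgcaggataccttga
Of 26 members with a window in the RefSeq table (30 windows in all, since some have more than 1 start), Ehhadh was the only one with TGACGT on either strand, and 7.51% of all 32851 windows hold it. The letters TTGCATCA, a composite element bound by ATF4 dimers, were in no member window and in 0.895% of all windows. The PPAR direct repeat, which is AGGTCA given 2 times with any 1 base between, was in no member window and in 0.0396% of all windows, and TCAAGGTCA, the estrogen-related receptor element, was in none and in 0.423%. The hexamer AGGTCA, which both of those contain, was in the windows of Acadm, Acadvl, Cpt1a and Slc27a2 and in 16.3% of all windows. The palindromic site of NRF1, a factor that drives nuclear genes for mitochondria, was in the window of Etfdh and in 0.971% of all windows. All motifs were searched on both strands, and a match is a description of these letters and not a measured binding site. Hsd17b4, Decr1, Cpt1b, Crat and Acaa2 had no window.

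For the other 30 members the log2 genotype difference lay between -0.14 and 0.54, with 27 of them within 0.2 of 0, and no unadjusted p was below 0.168. Slc27a2, a very long chain acyl-CoA synthetase and fatty acid transporter, had 49.2 (WT 1) and 73.8 (WT 2) CPM against 115 (KO 1) and 64.2 (KO 2) CPM. KO 1 was the highest, KO 2 lay between the WT libraries, and the log2 difference was 0.54 ± 0.34 (edgeR unadjusted p = 0.168). Within prefixes the difference was 0.64 (S1) and 0.38 (S2), and with the prefix as a second term it was 0.51 ± 0.15 with an adjusted p of 0.208. Slc27a1, the fatty acid transport protein of muscle and fat, had 130.1 (WT 1) and 145 (WT 2) CPM against 197 (KO 1) and 147 (KO 2) CPM. Its groups did not overlap, though KO 2 exceeded WT 2 only slightly, and the log2 difference was 0.32 ± 0.22 (unadjusted p = 0.192). Acadl had 1864 (WT 1) and 1758 (WT 2) CPM against 1808 (KO 1) and 2182 (KO 2) CPM, with KO 2 the highest and KO 1 between the WT libraries (0.14 ± 0.25, unadjusted p = 0.593).

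**Figure D2:**
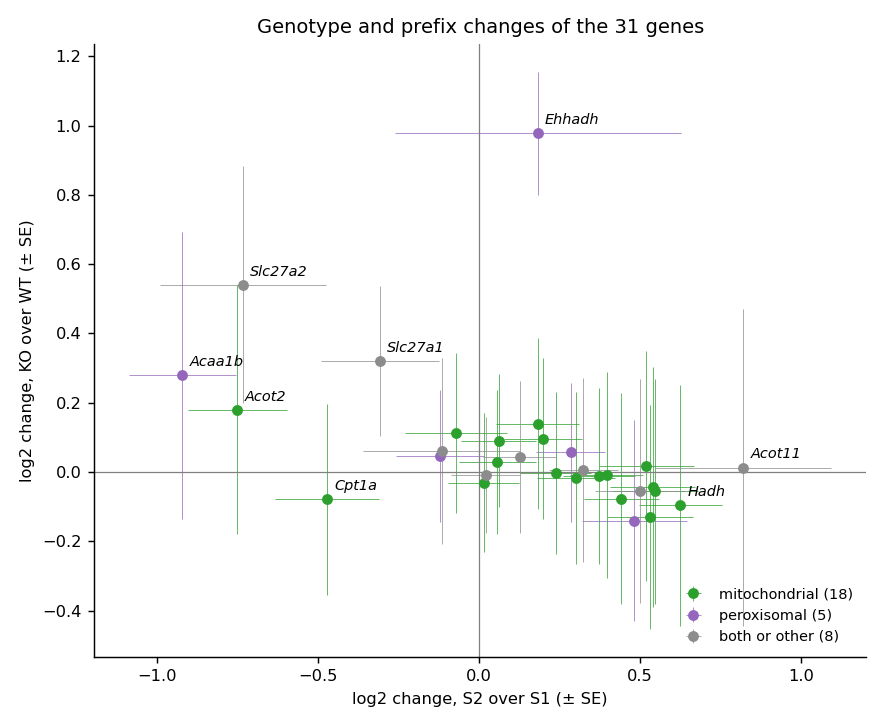
Log2 difference of each member for S2 over S1 (horizontal axis) and KO over WT (vertical axis), with bars of ± SE and colours for the compartment. Ehhadh is alone at 0.98 on the genotype axis, while most mitochondrial members lie above 0 on the prefix axis and Acaa1b (-0.92), Acot2 (-0.75) and Slc27a2 (-0.73) lie lowest.

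More members were apart between the prefixes than between the genotypes. The median log2 difference, S2 over S1, was 0.20 over the 31 members and -0.01 over all genes tested, with 23 members above 0 and 8 below. No member passed an adjusted p of 0.05 in edgeR, where only 1 gene in all did (0.00639%). At an unadjusted p under 0.05 there were 17 members (54.8%, against 15.5% of all genes), 13 with S2 higher (41.9%, against 8.29%) and 4 with S2 lower (against 7.16%). The 17 became 3 without the library labelled WT 1 (9.68%, against 7.60% of all genes) and 5 without KO 2 (16.1%, against 7.13%), while 15 were left without KO 1 and 17 without WT 2. With all 4 libraries, the count was 8 in limma on log2(TPM + 1) (25.8%, against 10.4% of all genes). It was 9 with genotype as a second term (29.0%, against 19.8%). The S1 and S2 libraries did not overlap for 23 members (74.2%, against 53.2% of all genes), with S2 higher in 19 (61.3%, against 27.3%) and lower in 4 (against 25.9%). The median difference was 0.17 within WT and 0.28 within KO. Markers of other cells differed by prefix too: the macrophage sum was 1.63 times as high in S2 as in S1, with 8 of 15 markers higher in S2 without overlap, and the endothelial sum 0.703 times, with 7 of 10 lower in S2 without overlap. Their part in the prefix differences was not tested. Other tests called members by prefix: edgeR with no filter called 8, where it called 3.06% of all genes, and DESeq2 called 11 members (9 higher and 2 lower in S2), where it called 4.35% of the genes to which it gave an adjusted p. With genotype as a second term, edgeR called 3 members, all lower in S2, against 3.14% of all genes in either direction and 1.55% lower.

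**Figure D3:**
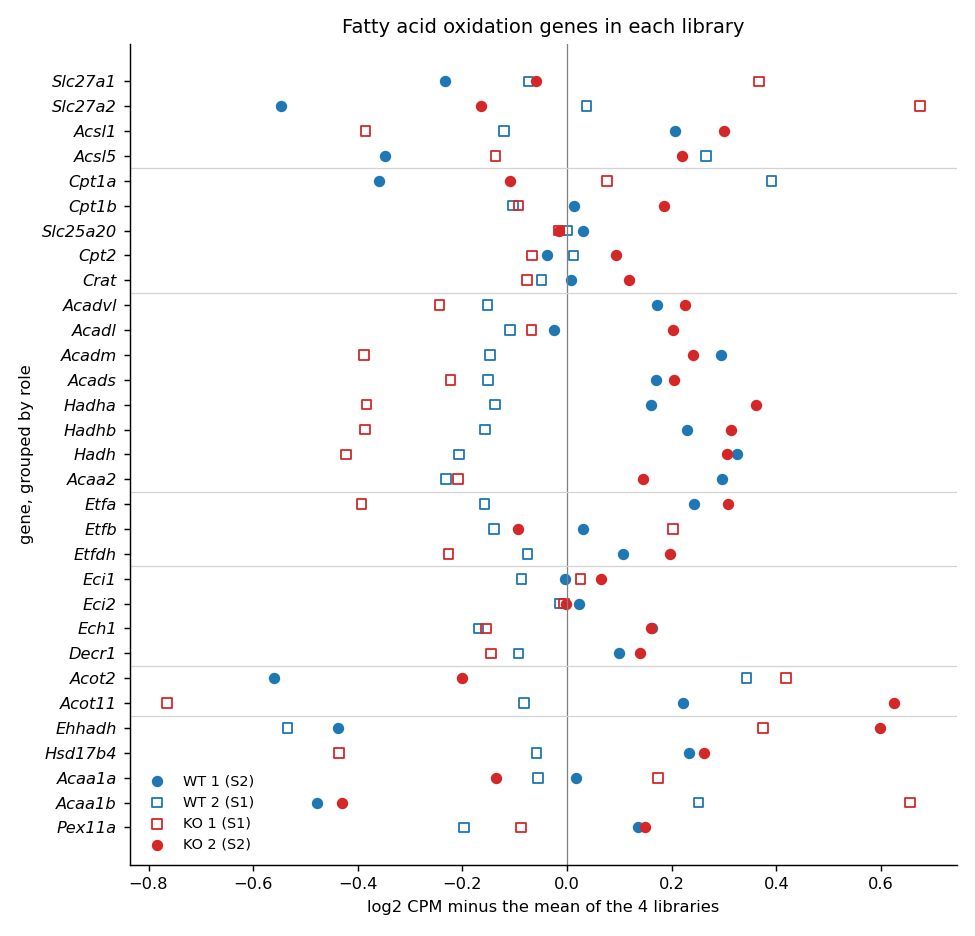
Level of each member in each of the 4 libraries as the log2 CPM minus the gene's mean, members grouped by role; filled circles are S2, open squares S1, blue WT and red KO. KO 1 is the lowest library in 14 members (45.2%) and KO 2 the highest in 17 (54.8%). Of all 15643 genes tested, KO 1 is the lowest in 5464 and KO 2 the highest in 3884.

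In CPM, the 8 enzymes of the mitochondrial cycle itself were all higher in both S2 libraries than in both S1 libraries. Their log2 differences, S2 over S1, ran from 0.18 to 0.63 with a median of 0.48, and 7 of the 8 had an unadjusted p under 0.05. Of all genes tested, 27.3% were higher in S2 without overlap and 8.29% were higher in S2 at an unadjusted p under 0.05. By genotype the same 8 lay between -0.13 and 0.14. Hadh, the medium and short chain hydroxyacyl-CoA dehydrogenase, was at 1769 CPM in WT 1 and 1746 in KO 2 (S2), and at 1225 in WT 2 and 1054.5 in KO 1 (S1). Its S2 mean was 1.54 times its S1 mean, a log2 difference of 0.63 ± 0.13 (SE, n = 2 a group; edgeR unadjusted p = 0.00459, adjusted p = 0.277). Acadm, the medium chain acyl-CoA dehydrogenase, was at 2174 and 2096 CPM in S2 (WT 1, KO 2) and at 1601 and 1355 CPM in S1 (WT 2, KO 1). KO 1 was again the lowest, and the log2 difference was 0.53 ± 0.13 (adjusted p = 0.277). Hadhb was at 4236 and 4488 CPM in S2 and at 3239.6 and 2764 CPM in S1 (0.54 ± 0.13, adjusted p = 0.277). Its partner Hadha was at 2198 and 2528 CPM in S2 and at 1789 and 1509 CPM in S1 (0.52 ± 0.15, adjusted p = 0.285). Both subunits had the same order of libraries, KO 2, WT 1, WT 2 and KO 1 from high to low.

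Acadvl was at 3136 and 3256 CPM in S2 and at 2506 and 2351 CPM in S1, a log2 difference of 0.40 ± 0.11. Acaa2 was at 2881 and 2597 CPM in S2 and at 2000.1 and 2031 CPM in S1 (0.44 ± 0.12). The prefixes did not overlap for either gene in CPM, but this did not hold in TPM summed over all transcripts. There Acadvl was lower in both S2 libraries, at 1736 (WT 1) and 1736 (KO 2) against 1765 (WT 2) and 1889 (KO 1) TPM. Acaa2 overlapped, at 2434 (WT 1) and 2127 (KO 2) in S2 and at 1983 (WT 2) and 2211 (KO 1) TPM in S1. Acads, the short chain acyl-CoA dehydrogenase, differed by 0.37 ± 0.11 and Acadl by 0.18 ± 0.13, the smallest of the 8.

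The window upstream of Hadhb is shown because Hadhb and its neighbour Hadha moved side by side. Hadha and Hadhb lie head to head on chromosome 5, with 272 bases between their RefSeq starts (30154980, minus strand, and 30155253, plus strand, in GRCm38.p6). Hadhb spans chr5:30155248-30184593 and Hadha chr5:30118304-30155162 in GENCODE vM21. The window is chr5:30155003-30155302, plus strand, and capitals mark GGGCGG, the GC box, on either strand. It holds the Hadhb start, while the RefSeq start of Hadha lies just outside it and the GENCODE start of Hadha inside it.
Hadhb promoter: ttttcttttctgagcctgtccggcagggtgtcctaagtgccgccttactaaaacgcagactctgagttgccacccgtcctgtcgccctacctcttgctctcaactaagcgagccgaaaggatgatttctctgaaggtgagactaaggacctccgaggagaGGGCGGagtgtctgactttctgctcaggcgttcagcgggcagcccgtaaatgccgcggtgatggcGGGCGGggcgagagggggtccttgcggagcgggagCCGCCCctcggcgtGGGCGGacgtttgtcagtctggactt
It holds 4 matches. GGGCGG was in 21 of the 30 member windows, for 20 members, and in 35.7% of all windows.

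Electron transfer and the carnitine shuttle were less uniform. Etfa, the alpha subunit of the flavoprotein that takes electrons from the acyl-CoA dehydrogenases, was at 1436 and 1503 CPM in S2 and at 1088 and 925 CPM in S1 (log2 difference 0.55 ± 0.13, adjusted p = 0.277). Etfb, its partner subunit, was at 792 (WT 1) and 726 (KO 2) CPM in S2 and at 704 (WT 2) and 892 (KO 1) CPM in S1, so the prefixes overlapped and KO 1 was the highest (-0.07 ± 0.16). Etfdh, the oxidoreductase that hands the electrons to ubiquinone, differed by 0.30 ± 0.12 without overlap. Slc25a20, the carnitine and acylcarnitine exchanger, stayed between 566 and 583 CPM in all 4 libraries. Cpt2, which reforms acyl-CoA in the matrix, ran from 598 to 669 CPM with overlapping prefixes (0.06 ± 0.12), and Cpt1b, which starts the shuttle, from 925 to 1129 CPM (0.20 ± 0.12). Crat, which makes short chain acylcarnitines, ran from 852 to 975 CPM. Cpt1a was the exception in direction: it was at 23.4 and 27.9 CPM in S2 and at 39.4 and 31.7 CPM in S1, lower in both S2 libraries (-0.47 ± 0.16, unadjusted p = 0.0335).

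Among activating enzymes, Acsl1, the main long chain acyl-CoA synthetase of fat, was at 2272 and 2423 CPM in S2 and at 1810.2 and 1507 CPM in S1 (0.50 ± 0.14, unadjusted p = 0.0157). Acsl5, another long chain synthetase, overlapped between both prefixes and both genotypes (108 to 165 CPM). Auxiliary enzymes for unsaturated chains were split: Ech1 differed by 0.32 ± 0.11 and Decr1, the dienoyl-CoA reductase, by 0.24 ± 0.11, both with S2 higher, whereas the enoyl-CoA isomerases Eci1 (0.06 ± 0.12) and Eci2 (0.02 ± 0.11) hardly differed. Acot11, an acyl-CoA thioesterase abundant in brown fat, had the largest difference with S2 higher. It was at 583 (WT 1) and 770.3 (KO 2) CPM in S2 and at 472 (WT 2) and 294 (KO 1) CPM in S1, a log2 difference of 0.82 ± 0.27 (unadjusted p = 0.0304). The spread between the 2 KO libraries, 1.39 on the log2 scale, was larger than that between the WT libraries, 0.30.

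Acot2, Acaa1b and Slc27a2 were lower in S2 and passed the test in the fit with both terms. Acot2, the mitochondrial long chain acyl-CoA thioesterase (chr12:83987861-83993873, plus strand), was at 40.6 and 52.0 CPM in S2 (WT 1, KO 2) and at 75.9 and 79.97 CPM in S1 (WT 2, KO 1). The log2 difference was -0.75 ± 0.15 with an adjusted p of 0.277 in the edgeR fit on prefix alone, and with genotype as a second term Acot2 was called (-0.76 ± 0.16, adjusted p = 0.0299). Acaa1b, a peroxisomal thiolase (chr9:119148023-119157093, minus strand), was at 25.9 and 26.8 CPM in S2 and at 43.0 and 57.0 CPM in S1. It differed by -0.92 ± 0.17 (adjusted p = 0.277), and by -0.91 ± 0.16 with genotype as a second term (edgeR adjusted p = 0.0175). Slc27a2 had the values given above, with both S2 libraries (49.2 and 64.2 CPM) below both S1 libraries (73.8 and 115 CPM). It differed by -0.73 ± 0.26, and by -0.71 ± 0.15 with genotype as a second term (edgeR adjusted p = 0.038). By genotype, Acaa1b differed by 0.28 ± 0.41 and Acot2 by 0.18 ± 0.36, smaller than their standard errors.

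**Figure D4:**
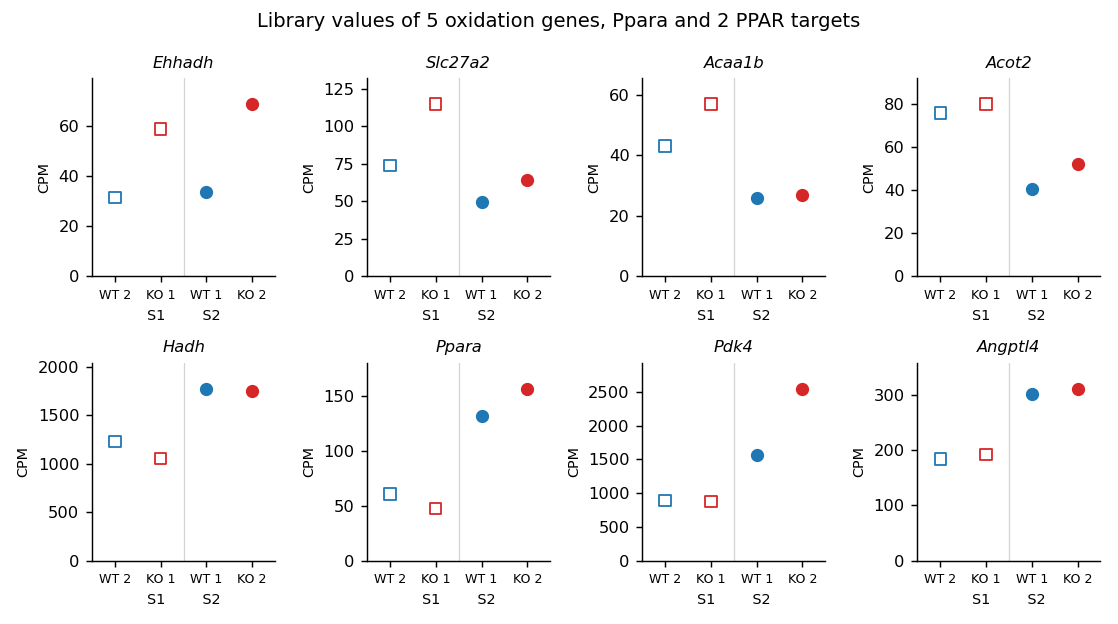
CPM in each library for 5 members and for Ppara, Pdk4 and Angptl4, with S1 (open squares) left and S2 (filled circles) right of the line, blue WT, red KO, and each panel on its own axis from 0. Ehhadh is high in both KO libraries, Hadh and Ppara in both S2 libraries, and Acot2 and Acaa1b in both S1 libraries.

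Both Acaa1b and Acot2 have a near-identical neighbour, so the split of reads between copies is uncertain. The coding sequences of Acaa1a and Acaa1b (first GENCODE transcript of each, 1275 bases each, vM21) differ at 44 bases, an identity of 96.5%, with 327 identical bases in the longest run and 50.7% of their 31-base words in common. Acot2 (1362 bases) and Acot1 (1260 bases), the cytosolic copy, differ at 56 aligned bases and in 144 gap columns, and 48.4% of the 31-base words of Acot2 occur in Acot1. A stretch of 90 coding bases from each pair is shown, with capitals at the bases that differ between the copies, 13 in the first pair and 14 in the second. Positions are counted from the first coding base: 460 to 549 in both Acaa1 copies, 920 to 1009 in Acot2 and 797 to 886 in Acot1. The Acot2 stretch is chr12:83992638-83992727 and the Acot1 stretch chr12:84016916-84017005, both plus strand, each in 1 exon. The Acaa1 stretches cross a splice junction, within chr9:119346483-119347733 (plus strand) for Acaa1a and chr9:119150901-119151901 (minus strand) for Acaa1b.
Acaa1a: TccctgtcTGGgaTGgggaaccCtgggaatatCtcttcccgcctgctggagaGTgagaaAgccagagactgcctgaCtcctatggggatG
Acaa1b: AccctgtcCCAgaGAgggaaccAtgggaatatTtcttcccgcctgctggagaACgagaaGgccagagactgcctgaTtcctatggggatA
Acot2: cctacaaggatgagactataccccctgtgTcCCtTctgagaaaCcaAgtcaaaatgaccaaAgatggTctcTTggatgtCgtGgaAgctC
Acot1: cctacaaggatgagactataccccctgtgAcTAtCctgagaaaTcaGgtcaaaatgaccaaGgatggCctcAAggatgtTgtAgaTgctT

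Acaa1a, the other peroxisomal thiolase copy, was at 107 and 96.3 CPM in S2 and at 102 and 119 CPM in S1, with overlapping prefixes (-0.12 ± 0.14). Summed over both thiolase copies, the log2 difference S2 over S1 was -0.33 ± 0.14 (edgeR adjusted p = 0.348) and KO over WT 0.11 ± 0.23. The summed thiolase pair thus differed less between prefixes than Acaa1b alone. Acot1 was at 0.541 and 2.16 CPM in S2 and at 4.24 and 7.57 CPM in S1, and was called with genotype as a second term (-2.30 ± 0.34, edgeR adjusted p = 0.00781). Summed, Acot1 and Acot2 differed by -0.82 ± 0.17 (adjusted p = 0.278), close to Acot2 alone.

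The remaining peroxisomal members differed in direction from each other. Hsd17b4, the D-bifunctional enzyme for very long and branched chains, was at 388 and 396 CPM in S2 and at 317 and 244 CPM in S1 (0.48 ± 0.16, unadjusted p = 0.0308). Pex11a, which acts in peroxisome division, was at 76.8 and 77.5 CPM in S2 and at 60.9 and 65.7 CPM in S1 (0.29 ± 0.11, unadjusted p = 0.0443). Ehhadh overlapped between prefixes (0.18 ± 0.44). As classes, the 18 mitochondrial members had a median S2 over S1 log2 difference of 0.27 and the 5 peroxisomal members one of 0.18, a gap of 0.09. For KO over WT the medians were -0.01 and 0.06, a gap of -0.07. The classes were not tested against each other, and leaving out single libraries turned the sign of both gaps. Summed CPM of the mitochondrial members was 25527 and 26461 in S2 and 20574 and 19217 in S1, a ratio of 1.31, against 1.18 for the peroxisomal members (632 and 665 against 554 and 545 CPM). The sum of the 18 mitochondrial members was 40.4 (WT 1), 37.1 (WT 2), 35.3 (KO 1) and 39.8 (KO 2) times that of the 5 peroxisomal members. Both S2 libraries had the higher ratio on this scale, but in TPM, with short transcripts included, it was 64.0, 59.3, 60.1 and 61.6, a narrower range. These ratios cover the members only. In the same order of libraries, 28 other peroxisomal oxidation genes summed to 3983, 4061, 3748 and 4165 CPM. The 29 other mitochondrial oxidation genes summed to 4647, 3758, 3645 and 4877 CPM.

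Genes of the same or related pathways outside the 31 were counted in the same way. Of 29 other mitochondrial oxidation genes, 0 were called in the genotype or prefix fit by edgeR. By genotype, 2 had an unadjusted p under 0.05 (6.90%, against 4.02% of all genes). The median S2 over S1 log2 difference was 0.22, with S2 higher without overlap in 14 (48.3%, against 27.3% of all genes). By prefix, 13 had an unadjusted p under 0.05 (44.8%, against 15.5%), of which 12 had S2 higher (41.4%, against 8.29%). Ivd, the isovaleryl-CoA dehydrogenase of leucine breakdown, was at 270.4 and 278 CPM in S2 and at 183 and 171 CPM in S1 (0.63 ± 0.11). Acat1, the acetoacetyl-CoA thiolase, differed by 0.58 ± 0.12 and Echs1, the short chain enoyl-CoA hydratase, by 0.51 ± 0.11, both with S2 higher. With genotype as a second term 1 of the 29 was called, the lower Acot1, which was put in this list as the copy of Acot2 although its protein is cytosolic. The list also holds Acsl3, Acsl4, Acsl6, Cpt1c and Acot7, whose proteins are not, or not only, mitochondrial. Ivd, Oxct1 and some others in it serve amino acid or ketone breakdown. By genotype the smallest unadjusted p belonged to Acsl6, a long chain synthetase (0.0105), which was below 1 CPM in every library, and to Acsl3 (0.0424), with 13.4 to 13.9 CPM in WT and 17.3 to 19.2 CPM in KO.

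Other peroxisomal oxidation genes did not share the prefix pattern. Over the 25 of 28 that passed the filter the median S2 over S1 log2 difference was -0.04, with 7 higher and 9 lower in S2 without overlap, and 0 were called in any of the edgeR fits by genotype or prefix (unadjusted p under 0.05 in 0 by genotype and 5 by prefix). Phyh, the phytanoyl-CoA hydroxylase of branched chain breakdown, differed by 0.59 ± 0.14 with S2 higher, while Abcd4 (-0.49 ± 0.11), an ABC transporter, and the thioesterase Acot8 (-0.53 ± 0.15) had S2 lower. The 18 peroxisome assembly genes had a median of 0.01. Pex16, a membrane assembly factor (-0.36 ± 0.12), was the only 1 with an unadjusted p under 0.05 by prefix (5.56%, against 15.5% of all genes).

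Among 26 regulators and uptake genes that passed the filter, 2 rose in S2 in the fit with both terms. That fit called 3.14% of all genes by prefix, and 1.59% as higher in S2. Ppara, the nuclear receptor that drives fatty acid oxidation genes, was at 133 and 157 CPM in S2 (WT 1, KO 2) and at 61.0 and 47.6 CPM in S1 (WT 2, KO 1). Its log2 difference was 1.42 ± 0.18 with an edgeR adjusted p of 0.00407. Acaca, the acetyl-CoA carboxylase that makes malonyl-CoA, was at 1393 and 1582 CPM in S2 and at 768 and 359 CPM in S1 (1.50 ± 0.30, edgeR adjusted p = 0.0286). Neither passed in the fit on prefix alone (adjusted p = 0.277 and 0.278). In that edgeR fit, 5 of the 26 had an unadjusted p under 0.05 (19.2%, against 15.5% of all genes). The prefixes did not overlap for 14 (53.8%, against 53.2%), so the list as a whole was near the share of all genes. The coactivator Ppargc1a was at 27.9 and 41.5 CPM in S2 and at 22.1 and 24.3 CPM in S1, and by genotype it differed by 0.40 ± 0.29.

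Of 15 further targets of PPAR receptors that passed the filter, Pdk4 rose and Cyp4b1 fell in S2 in the fit with both terms. That fit called 3.14% of all genes by prefix. Pdk4, the kinase that restrains pyruvate oxidation, was at 1564 and 2543 CPM in S2 and at 886 and 872 CPM in S1 (1.18 ± 0.25, edgeR adjusted p = 0.0353). Angptl4, an inhibitor of lipoprotein lipase, was at 302 and 311 CPM in S2 and at 184 and 192 CPM in S1, with an adjusted p of 0.0571. Cyp4b1, a cytochrome P450, was at 35.0 and 45.5 CPM in S2 and at 87.6 and 77.3 CPM in S1 (edgeR adjusted p = 0.0126). The median of the 15 was -0.02, so the list as a whole did not move one way.

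Several members had short or alternative transcripts whose share of the gene's counts followed the same order of libraries. For the 5 members described here, chosen after their transcripts were seen, the order was KO 1, WT 2, WT 1 and KO 2 from high to low, so both S1 libraries lay above both S2 libraries. The short Acadvl transcript (ENSMUST00000134516) holds 538 of the 2168 bases of the full-length transcript, from the 3′ end, and took 2.51% (WT 1), 6.76% (WT 2), 16.9% (KO 1) and 1.07% (KO 2) of the gene's counts. The short Acaa2 transcript (ENSMUST00000237306), with 504 of 1516 bases in 3 of 10 exons, took 4.72%, 7.81%, 19.7% and 2.84% in the same order. The short Ech1 transcript (ENSMUST00000132376), with 673 of 1267 bases, took 10.02%, 16.55%, 30.7% and 6.99%. KO 1 had the highest share of each of these transcripts. A Cpt2 transcript (ENSMUST00000106720), which lacks 1 exon of 1305 bases, took 7.58%, 14.8%, 33.8% and 4.31%. An Etfdh transcript (ENSMUST00000120992), nearly as long as the full transcript (2233 of 2377 bases), took 10.9%, 28.5%, 54.4% and 7.61%. Short transcripts of some other members went the other way. A short Acadl transcript (649 bases) held 7.33% (WT 1) and 12.6% (KO 2) of the gene's TPM in S2, and 0 in both S1 libraries. A short Acadm transcript (690 bases) held 6.28% (WT 1) and 9.22% (KO 2), and almost none in S1.

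**Figure D5:**
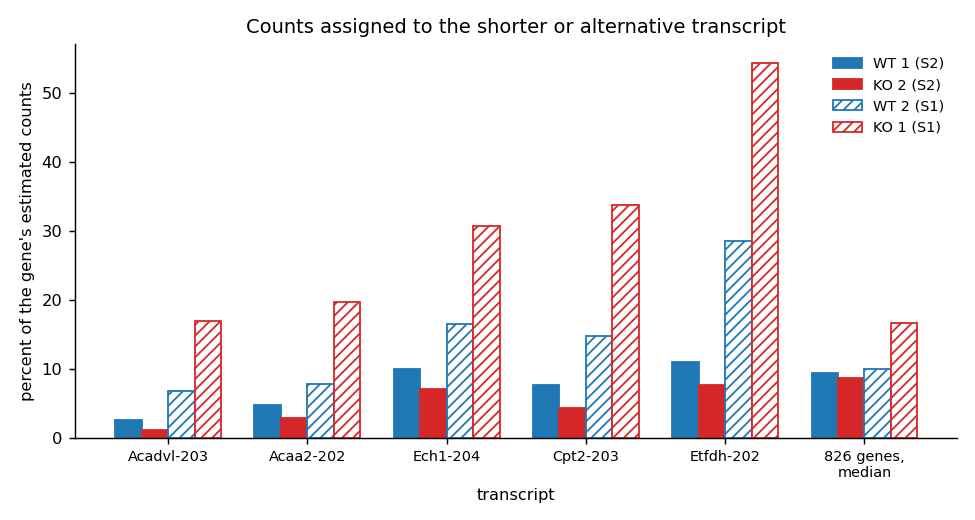
Percent of a gene's estimated counts on 1 short or alternative transcript in each library, for Acadvl, Acaa2, Ech1, Cpt2 and Etfdh, and the median over 826 genes; hatched bars are S1, solid bars S2, blue WT and red KO. KO 1 is highest and KO 2 lowest in each.

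Beyond the members the separation was mainly that of KO 1. Over 826 genes with a short transcript at the 3′ end (at most 60% of the length, the same 3′ end within 50 bases, at least 100 counts in each library), the median share was 9.33% (WT 1), 9.89% (WT 2), 16.6% (KO 1) and 8.72% (KO 2). KO 1 was highest for 557 of them (67.4%), both S1 libraries lay above both S2 libraries in 325 (39.3%), and the medians of the WT libraries were close. Transcripts at the 5′ end of 2882 genes had median shares of 0.897%, 0.904%, 0.734% and 0.811%. The part of the short share in the lower counts of mitochondrial members in S1, above all in KO 1, was not tested. For the full-length transcripts alone, in TPM, the S2 mean over the S1 mean was 1.50 for Acadvl, 1.54 for Acaa2, 1.56 for Ech1, 1.30 for Cpt2 and 1.90 for Etfdh. The ratios of the whole genes in CPM were 1.32, 1.36, 1.25, 1.04 and 1.23, each smaller. In the 8 members with 1 dominant transcript (at least 95% of the gene's TPM in every library), Acads, Acot11, Acot2, Cpt1a, Decr1, Ehhadh, Hadh and Slc25a20, the median S2 over S1 log2 difference was 0.21, against 0.20 over all 31. Of these 8, 4 had both S2 libraries higher and 2, Acot2 and Cpt1a, both lower, against 27.3% and 25.9% of all genes.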

How the data were processed

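RNA from brown adipose tissue was made into stranded mRNA libraries, per the labels' protocols. The submitters' processing notes name kallisto 0.45.0 and build mm10; its transcript set and strand setting are not given in the sources used. The deposited files hold estimated counts and TPM per transcript, made by the authors. Deposited transcript and effective lengths were not used as measurements. Transcripts were matched to GENCODE vM21 (138191 of 141450; the other 3259 held 0.992% to 1.04% of the counts), and their estimated counts were added up by gene, then rounded. Genes were kept by filterByExpr (minimum count 10, total 15), which left 15643. CPM are scaled by TMM factors. Genotype and prefix were each tested with edgeR 4.0.16 (quasi-likelihood test, Benjamini-Hochberg adjustment over all genes tested, threshold 0.05) in R 4.3.3. With 2 libraries a group, 2 residual degrees of freedom are left, and only 1 in a fit with a second term. Log2 differences are given ± SE. Alternatives used DESeq2 1.42.0, limma 3.58.1 on log2(TPM + 1), other scalings and filters, second terms, a replicate block and leaving out each library. The procedure was tested on simulated data. Kallisto divides reads among similar copies by estimation, so the counts of close copies are uncertain. Counting error covers only part of the spread between libraries.

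All 31 members are named, with every library's value for those called, with the 6 smallest p by genotype and by prefix, or with the 6 highest TPM; of each other pathway list up to 4 genes with the smallest p per comparison could be named. Ppargc1a by prefix was named outside that rule, after its values were seen. The members and lists were chosen with earlier results of these data known. Liver markers (8 genes) summed to 5.92, 23.2, 28.9 and 6.47 CPM in WT 1, WT 2, KO 1 and KO 2, with 4, 1, 2 and 2 at 0 counts. Promoters are from RefSeq (GRCm38.p6).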

Additional observations from a re-analysis of the deposited data

How the results depend on the processing

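By genotype, 122 genes and 0 members were called by edgeR; the counts were 457 genes and 1 member with no filter, 218 and 1 with DESeq2, and 320 and 1 with the prefix as a second term, the member being Ehhadh each time. By prefix, 1 gene and 0 members were called; the counts were 823 genes and 8 members with no filter, 548 and 11 with DESeq2, and 491 and 3 with genotype as a second term. Leaving out 1 library gave 78 (without KO 2) to 205 (without WT 2) genes by genotype and 0 to 1 by prefix, with 0 members in either; without WT 1 it was 187 by genotype. The members' median ran from -0.070 to 0.16 by genotype and from 0.11 to 0.29 by prefix. The mitochondrial minus peroxisomal gap ran from -0.39 to 0.074 by genotype and from -0.087 to 0.52 by prefix. The low library number limits precision: 4 libraries leave 2 residual degrees of freedom, and only 1 in the fits with a second term.

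The labels do not say whether replicate numbers pair the libraries. Deviations from the group means of libraries with the same number correlated at -0.382, and those with the same prefix at 0.382. With 2 libraries a group these 2 values always mirror each other, so they cannot decide how the libraries pair. With the replicate block 164 genes (1.05%) and 0 members were called by genotype. The crossed pairing, which is the prefix, gave the 320 genes above.

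Genotype differences near 0 changed sign, and the cause was not tested. In limma on log2(TPM + 1), where the median of all genes was -0.07, they were -0.020 for Cpt1b, 0.049 for Acadvl, -0.10 for Hadha, -0.073 for Acaa1a, -0.045 for Pex11a, -0.12 for Crat, -0.027 for Ech1 and -0.25 for Acot11. Hadha was at -0.022 and Acot11 at -0.14 with the replicate block and with the prefix term. Decr1 was at 0.0020 with no filter and 0.0016 with a 1 CPM filter. By prefix, Slc25a20 was at -0.0046 with the 1 CPM filter, and Cpt2 at -0.25 and Acadvl at -0.073 in limma on TPM.

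Without single libraries the genotype difference ran from -0.26 to 0.21 for Acadvl, -0.48 to 0.15 for Acadm, -0.24 to 0.19 for Acads, -0.44 to 0.26 for Hadhb, -0.51 to 0.22 for Hadh, -0.32 to 0.21 for Acaa2, -0.45 to 0.25 for Etfa, -0.25 to 0.18 for Etfdh, -0.15 to 0.13 for Decr1, -0.20 to 0.70 for Acot2, -0.53 to 0.17 for Hsd17b4, -0.36 to 0.72 for Acaa1b, -0.028 to 0.010 for Eci2, -0.44 to 0.25 for Acsl1, -0.21 to 0.40 for Acsl5, -0.40 to 0.35 for Cpt1a, -0.40 to 0.34 for Hadha, -0.10 to 0.23 for Pex11a, -0.16 to 0.18 for Ech1, -0.84 to 0.55 for Acot11, -0.042 to 0.25 for Etfb, -0.12 to 0.19 for Acaa1a, -0.051 to 0.23 for Cpt1b, -0.057 to 0.11 for Cpt2, -0.0044 to 0.27 for Acadl and -0.059 to 0.14 for Crat. By prefix it ran from -0.0083 to 0.035 for Slc25a20, -0.43 to 0.14 for Acsl5, -0.43 to 0.71 for Ehhadh, -0.23 to 0.11 for Etfb and -0.013 to 0.12 for Cpt2.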
